A study of Mus musculus with 22 samples.

Results

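The results below concern 127 probesets of an exon array that were detected in the brains of DBA/2J (D2) mice and lay at background in C57BL/6J (B6) mice. They are the probesets with a mean log2 value of at least 3.5 over the 12 D2 arrays and of at most 1.5 over the 10 B6 arrays, out of 1190406 probesets with values. Every array was hybridised with RNA from the whole brain of a single male mouse, labelled as adult and naive, so that the 10 B6 and the 12 D2 arrays stand for separate untreated animals of 2 inbred strains. The labels name no engineered allele and no age beyond adult. Because the rule used the strain contrast, the D2 minus B6 differences of the 127 are a description and no test is drawn from them.

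The Mouse Exon array carries a separate probeset for most exons of a gene, so that a gene transcribed in one strain alone shows as a run of raised probesets, and a difference in one exon shows as a single raised probeset in an otherwise even gene. The probes were designed on the reference mouse genome, which comes from B6. On this log2 scale the floor is not a true zero. The values of all probesets had array medians from 1.41 to 1.51, which is close to the upper limit set for B6, so a fold against B6 can understate a difference in RNA.

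Of the 127 probesets, 41 listed exactly 1 gene symbol, 2 listed several and 84 listed none. The 41 fell in 11 genes. Stab2 held 30 of them, which is 23.6% of the whole set and 73.2% of the named probesets. Xaf1 held 2. The remaining 9 genes (Bloc1s6, D17H6S56E-5, Gm8983, H2-K2, Psmb5, Rtp3, Sfi1, Ssxb9 and Zfp934) held 1 each. Probesets with no symbol made up 66.1% of the set, compared with 40.8% of all probesets that reached a mean of 3.5 in D2 and 73.4% of all probesets on the array.

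**Figure D1:**
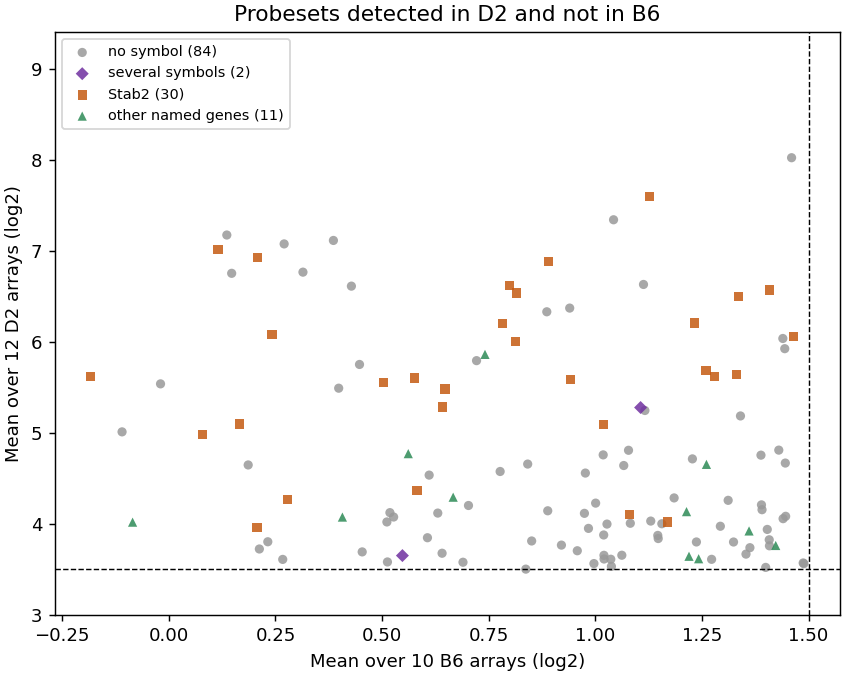
Mean of each of the 127 probesets over the 10 B6 arrays (x axis, log2) and over the 12 D2 arrays (y axis, log2). Dashed lines mark the limits of 1.5 in B6 and 3.5 in D2; the 30 Stab2 probesets lie between 3.96 and 7.60 in D2, and the highest point, at 8.02, has no listed symbol.

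Stab2 encodes stabilin-2, a large scavenger receptor that takes up hyaluronan and other ligands and is best known from the sinusoidal endothelium of liver, spleen and lymph node. Xaf1 encodes an interferon-inducible factor that binds the apoptosis inhibitor XIAP. These are the 2 genes with more than 1 probeset in the set, so their promoters are shown, taken from RefSeq (GRCm38.p6), each from 250 bases before to 50 bases after the transcription start. The table held 5 of the 11 genes.

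Stab2 (chr10:87007893-87008192, minus strand): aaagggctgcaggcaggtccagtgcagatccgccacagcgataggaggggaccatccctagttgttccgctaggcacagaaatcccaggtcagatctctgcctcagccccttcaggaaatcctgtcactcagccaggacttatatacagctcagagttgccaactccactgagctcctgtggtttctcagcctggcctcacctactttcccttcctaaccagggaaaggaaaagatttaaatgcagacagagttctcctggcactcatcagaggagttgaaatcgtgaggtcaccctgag
Xaf1 (chr11:72301379-72301678, plus strand): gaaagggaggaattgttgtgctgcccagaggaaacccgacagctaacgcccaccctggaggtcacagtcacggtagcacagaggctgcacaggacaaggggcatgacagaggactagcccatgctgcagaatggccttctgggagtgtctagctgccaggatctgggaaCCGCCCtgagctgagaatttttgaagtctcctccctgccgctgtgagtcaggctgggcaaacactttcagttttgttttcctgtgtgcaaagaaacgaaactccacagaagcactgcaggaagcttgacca

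Capitals mark the only match, on either strand, to the letters of a TATA box (TATAAA), of a CAAT box (CCAAT) or of a GC box (GGGCGG). It is a GC box match on the minus strand of the Xaf1 promoter, from 81 to 76 bases before the start. Among 32851 promoters of the same length, 13.6% held the TATA letters, 37.4% the CAAT letters and 35.7% the GC box letters. The Stab2 window held none of these letter strings. The deposited values come without probe sequences, so no probeset sequence is shown.

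Stab2 was detected along most of the gene in D2. All 72 of its probesets had a higher mean in D2 than in B6. In D2, 65 of the 72 reached a mean of 3.5, against 6 in B6. The 30 probesets that met the rule lay between -0.18 and 1.47 in B6 and between 3.96 and 7.60 in D2. The largest gap among them was that of probeset 5317539, which ran from -0.10 to 0.28 over the B6 arrays (median 0.12) and from 6.30 to 7.62 over the D2 arrays (median 6.93). Its strain means differed by 6.90 ± 0.13 (SE, n = 10 and 12), a 119-fold ratio on the linear scale. Probeset 4966864 was the brightest of the 30 in D2, at 7.18 to 8.07 (median 7.62), against 0.70 to 1.80 (median 1.05) in B6. At the other end, probeset 5492305 ran from 0.45 to 2.31 in B6 and from 2.71 to 4.76 in D2 and differed by 2.85 ± 0.23 (SE). No B6 array overlapped a D2 array in any of the 30, beside 0.297% of all probesets tested. The 30 were chosen on this contrast, so the count is a description.

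The 42 other Stab2 probesets missed the rule on either side. In 29 of them D2 reached 3.5 while B6 lay between 1.5 and 3.5, in 6 both strains reached 3.5, and in 7 D2 stayed below 3.5 with B6 at or below 1.5. Their differences ran from 0.99 to 7.05 (median 3.58). The highest belonged to probeset 5347000, with means of 1.52 ± 0.73 over 10 B6 mice and 8.58 ± 0.42 over 12 D2 mice (SD), which missed the limit in B6 by a small margin and exceeded the gap of every probeset inside it. The lowest gap among the 6 probesets detected in both strains was that of probeset 4393472, at 6.12 ± 0.31 in B6 and 7.38 ± 0.19 in D2, a 2.40-fold difference. Of the 42, 39 passed the filter on low values, and all 39 were called higher in D2 (limma adjusted p under 0.05), beside 1.67% of all 595203 probesets tested. The filter is on the mean over both strains, and 4 of the 39 (probesets 4480075, 4588660, 4933830 and 5480847) had a B6 mean below it and passed through their D2 level, so the count is a description. Arrays of the strains did not overlap in 36 of the 42, beside 0.297% of all probesets tested.

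A gene was counted as gained along its length where at least 2 of its probesets met the rule and these made up at least 50% of those detected in D2. No gene reached that count. Stab2 came nearest, with 30 of 65 (46.2%), and Xaf1 had 2 of 7 (28.6%). With the limits loosened to 3 in D2 and 2 in B6, Stab2 had 42 of 67 and passed, as did D17H6S56E-5 and Fmo2.

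**Figure D2:**
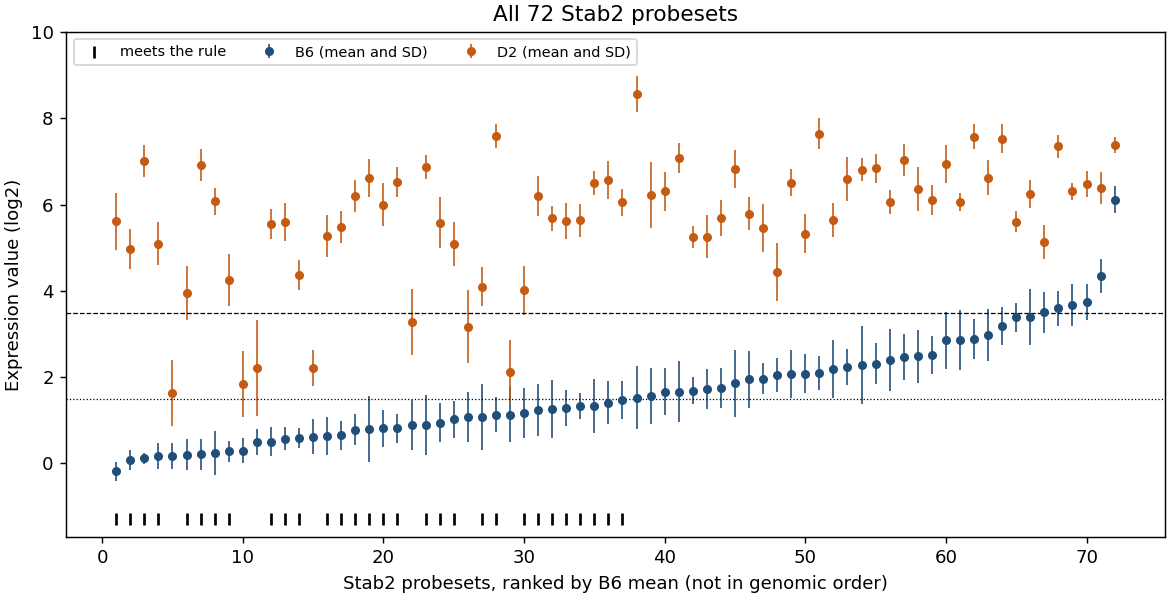
Mean and SD of all 72 Stab2 probesets over 10 B6 and 12 D2 arrays (y axis, log2), ranked by B6 mean on the x axis, which is not genomic order. The D2 mean lies above the B6 mean at all 72, and ticks at the bottom mark the 30 that met the rule.

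The nearest measured genes on either side of Stab2 in the RefSeq order were not called. Nt5dc3 and Hsp90b1 on one side differed by -0.24 ± 0.084 (SE, limma adjusted p = 0.0692) and -0.24 ± 0.11 (adjusted p = 0.174), and Igf1 and Pmch on the other by -0.18 ± 0.12 (adjusted p = 0.367) and 0.14 ± 0.17 (adjusted p = 0.655). These neighbours were chosen by position after the values of Stab2 had been seen. Over up to 2 measured genes on each side of the 11 genes, 42 in all, 2 were called higher (4930563E22Rik and 4930417H01Rik) and 4 lower (AA388235, H2-K1, Lrrc2 and Lancl3) in D2, beside 2.56% and 8.29% of 15951 genes.

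Hyaluronan is a glycosaminoglycan of the brain's extracellular matrix that synthases make at the cell surface, that receptors such as CD44 bind and that hyaluronidases and scavenger receptors remove. Of 14 genes of hyaluronan binding, synthesis and clearance, all measured, Stab2 was itself chosen on this contrast and is a description. Of the 13 others, 1 rose in D2, 3 fell and 9 were not called (gene values, limma adjusted p under 0.05), beside 2.56% of all genes called higher and 8.29% called lower. The median difference of the list, Stab2 included, was -0.045, beside -0.053 over all genes. The synthase gene Has1 was the gene that rose, by 0.25 ± 0.074 (SE; limma adjusted p = 0.0255). Stab1, which encodes the related receptor stabilin-1, fell by 0.42 with means of 4.00 ± 0.12 over 10 B6 mice and 3.57 ± 0.17 over 12 D2 mice (SD). Tnfaip6, whose product TSG-6 binds hyaluronan and links it to other matrix proteins, fell by 1.85. The synthase gene Has3 fell by 0.31 (adjusted p = 0.0488), a call that was lost with each array centred on its median gene value (adjusted p = 0.163), where Has2, a further synthase gene, was called higher (0.43, adjusted p = 0.0228). The receptor genes Lyve1 (0.059) and Cd44 (-0.36) and the hyaluronidase genes Hyal1 (-0.11) and Hyal2 (0.27) were not called.

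Brain markers were high in both strains, with means over the lists of 8.68 to 9.15 for neurons, 6.85 to 7.46 for astrocytes and 7.13 to 7.96 for oligodendrocytes on single arrays. Of these markers, Map2 (-0.38), Gfap (-0.80), Aldh1l1 (-0.40) and Mobp (-0.78) were called lower in D2 and none was called higher, where 8.29% of all genes were called lower. Markers of the sinusoidal and lymphatic endothelium, in which Stab2 is typically found, were mixed in level. The mean over the 7 genes ran from 2.16 to 2.47 on the B6 arrays and from 2.10 to 2.38 on the D2 arrays, so that the strains overlapped. Lyve1 (1.20 in B6, 1.23 in D2), Clec4g (0.85 and 0.82) and Oit3 (1.11 and 1.18) lay below the filter level of 1.44 in both. Fcgr2b (2.06 and 1.98), Flt4 (2.13 and 2.20), Stab1 (3.77 and 3.35) and Prox1 (5.36 and 5.06) lay above it. Stab1 and Prox1 can also be expressed by other brain cells. These values use all probesets of a gene. Over the 5 Lyve1 probesets that passed the filter, the values were 2.22 in B6 and 2.28 in D2. Of the 6 measured at gene level, none was called higher in D2, and Stab1 and Prox1 were called lower. The mean over the 5 blood markers on the array was 2.52 to 3.04 in B6 and 1.77 to 2.32 in D2. The red-cell genes Hbb-b1 (-2.75) and Alas2 (-0.82) were called lower, 2 of the 4 measured, beside 8.29% of all genes. The leukocyte genes Ptprc (-0.13) and Cd3e (0.097) were not called, and Ms4a1 (-0.042) was not measured at gene level. The lower blood mean in D2 thus came from the red-cell genes. Choroid plexus markers ran from 3.91 to 4.79 in B6 and from 3.37 to 4.10 in D2, with 3 of 4 called lower, and general endothelial markers from 4.21 to 4.78 and from 4.08 to 4.67, with 2 of 3 measured called lower, each beside 8.29% of all genes. Pituitary markers varied between mice, from 0.96 to 4.33 in B6 and from 1.20 to 7.498 in D2, and neither of the 2 measured at gene level was called. The part of these lists in the values of the 127 probesets was not tested. In bulk tissue, a change in the number of cells of a type and a change in RNA per cell cannot be told apart.

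In Xaf1 a few probesets carried the difference. Probeset 4671136 ran from -0.02 to 1.23 in B6 (median 0.54) and from 3.73 to 5.70 in D2 (median 4.74), a difference of 4.21 ± 0.21 (SE). Probeset 5361604 ran from 0.53 to 2.21 in B6 and from 4.00 to 5.35 in D2, a difference of 3.39 ± 0.18. Both were free of overlap between the strains, beside 0.297% of all probesets tested, but both were chosen on this contrast. Of the 11 other Xaf1 probesets, 2 were called higher in D2 (probeset 5232894 by 2.25 and probeset 4688297 by 0.56) and none lower. Over all probesets tested, 1.67% were called higher and 2.24% lower. Of the 11, 2 lay below the filter on low values, and the median difference was 0.13. Among the 3 other probesets with a mean of at least 3.5 in both strains, the differences were 0.040, 0.13 and 0.56.

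Of 20 interferon-response genes, 13 were measured. Xaf1, with a gene value 1.55 higher in D2, was chosen on this contrast and is a description. That value is the median of 11 probesets past the filter, the 2 within the rule among them. Over the 11 Xaf1 probesets outside the rule, the median difference was 0.13. Of the 12 others, Slfn8 rose, 5 fell and 6 were not called, beside 2.56% and 8.29% of all genes called higher and lower. The median difference of the list, Xaf1 included, was -0.13, beside -0.053 over all genes. Slfn8, a Schlafen family gene, had means of 2.37 ± 0.47 over the B6 and 4.03 ± 0.26 over the D2 arrays (SD). Slfn2 (-0.50), Bst2 (-0.38), Slfn5 (-0.32), Irf9 (-0.28) and Stat2 (-0.22) fell, but with each array centred on its median gene value none of these 5 was called (adjusted p from 0.0520 to 0.299). Ifi27 (-0.079) and Mx2 (0.061), both classical interferon targets, were not called. The nearest measured genes to Xaf1 were Slc13a5 (-0.20, adjusted p = 0.216) and Tekt1 (0.36, adjusted p = 0.0726), neither called, and beyond Slc13a5 4930563E22Rik was called higher by 0.56 (adjusted p = 0.00526).

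A single probeset met the rule in a gene otherwise detected in both strains in 3 genes, Psmb5, Bloc1s6 and Sfi1. The count required 1 probeset within the rule and at least 3 others with a mean of at least 3.5 in both strains. Of the 3, only in Psmb5 was no other probeset called higher.

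Psmb5, which encodes the beta5 subunit that gives the proteasome its chymotrypsin-like activity, was the clearest case of 1 raised probeset. Probeset 5037994 ran from -0.49 to 0.43 in B6 (median -0.13) and from 2.89 to 5.07 in D2 (median 3.98), a difference of 4.10 ± 0.23 (SE) with no overlap. The 6 other Psmb5 probesets lay between 5.80 and 7.79 in B6 and between 5.34 and 7.64 in D2. Their differences ran from -0.46 to 0.08, and none was called. Of the 17 genes of the proteasome core, all measured, none rose and 1 fell (2.56% and 8.29% of all genes), Psmb6, from 6.94 ± 0.26 in B6 to 5.86 ± 0.29 in D2. Psmb5 itself, counted among the 17, differed by -0.053 ± 0.11 (SE, limma adjusted p = 0.802) as a gene. Its gene value holds the probeset chosen on this contrast and is a description. The list median was -0.079, beside -0.053 over all genes.

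Bloc1s6 encodes pallidin, a subunit of the BLOC-1 complex that sorts cargo to melanosomes and other lysosome-related organelles; the array's older name for it is Pldn. Probeset 4669472 ran from 0.43 to 1.98 in B6 (median 1.19) and from 2.62 to 4.25 in D2 (median 3.59), a difference of 2.42 ± 0.18 (SE). A second probeset, 4515602, showed a gap at a higher level, with means of 2.81 ± 0.53 over the B6 and 5.78 ± 0.23 over the D2 arrays (SD), and was called higher with no overlap between the strains. Of the 9 remaining probesets, 8 were not called and 1 lay below the filter, and the 10 probesets outside the rule had a median difference of 0.25. As a gene, Bloc1s6 was not called (0.25 ± 0.098, SE, adjusted p = 0.103).

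Sfi1, whose product binds centrin at centrosomes, was raised in most of its probesets. Of its 94 other probesets, 93 were tested, 81 were called higher in D2 and none lower, beside 1.67% and 2.24% of all probesets tested, and the median difference was 2.20. The 12 not called included probeset 4361302, at a mean of 5.82 in B6 and 5.83 in D2. In B6, 60 of them had a mean of at least 3.5. Within the rule fell only probeset 5139229, with 0.56 to 2.32 in B6 (median 1.24) and 2.49 to 4.98 in D2 (median 3.85). Its gap of 2.56 ± 0.26 (SE) lay within the range of the other Sfi1 probesets, -0.17 to 3.30.

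**Figure D3:**
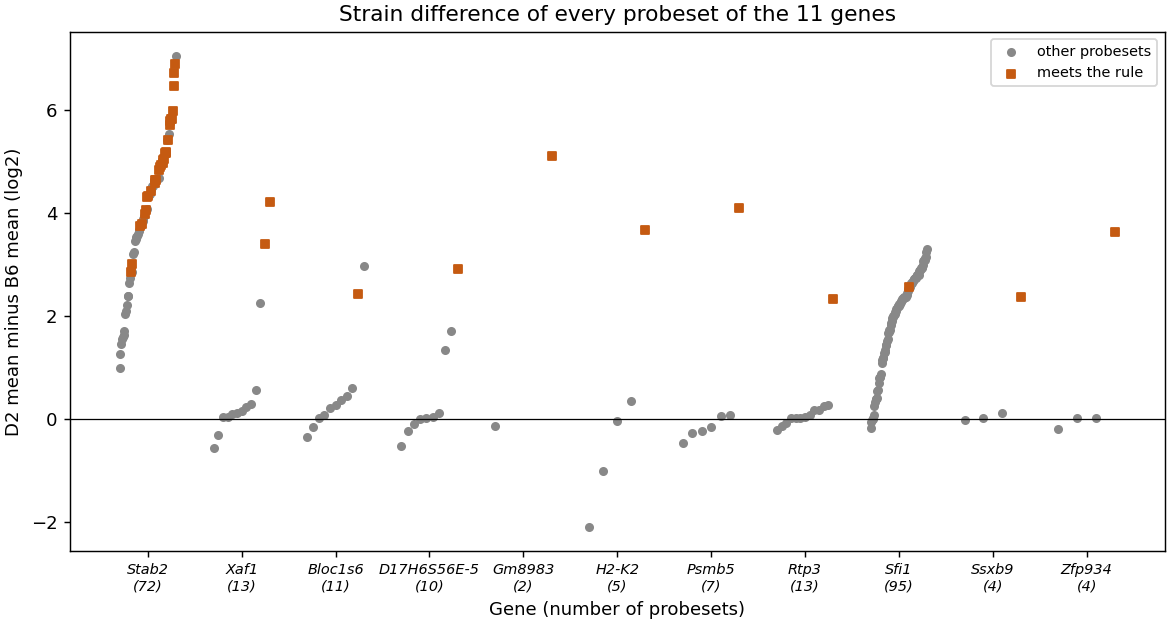
Difference of the strain means (y axis, D2 minus B6, log2) of every probeset of the 11 genes, with the number of probesets under each gene and points spread by rank. All 72 Stab2 probesets and most of those of Sfi1 lie above 0, with medians of 3.58 and 2.20 over the probesets outside the rule, while Psmb5, Gm8983, Rtp3, Ssxb9 and Zfp934 each have 1 raised probeset (square) above others near 0.

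D17H6S56E-5 had a raised subset. Probeset 4806958 ran from 0.33 to 2.28 in B6 (median 1.32) and began at 2.86 in D2 (median 4.26) with no overlap, a difference of 2.92 ± 0.26 (SE). Among the 9 others, probesets 5063654 and 4670923 were called higher, by 1.72 and 1.34, beside 1.67% of all probesets tested. Of the rest, 4 were not called and 3 lay below the filter. Probeset 5063654 had a B6 mean of 1.03, below the filter, and passed it through its D2 level. Its call is therefore a description. Probeset 4667660, not called, was bright in both strains, with means of 6.32 ± 0.31 over the B6 and 6.44 ± 0.28 over the D2 arrays (SD). The nearest measured genes, Lsm2 (0.13, adjusted p = 0.594) and Vars (-0.07, adjusted p = 0.656), were not called.

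H2-K2, listed by the array as EG630499 and annotated as a transcribed pseudogene of the class I major histocompatibility genes, differed in both directions. Probeset 4960552 ran from -0.43 to 2.21 in B6 (median 0.32) and from 2.38 to 5.55 in D2 (median 4.28), a difference of 3.67 ± 0.33 (SE). Probesets 5030290 and 5219977 were called lower in D2, by -2.09 and -1.01, beside 2.24% of all probesets tested. Probeset 5030290 had a D2 mean of 0.94, below the filter on low values, and passed it through its B6 level. Its call is therefore a description. Probeset 4869216 was detected in both strains, at 5.44 ± 0.33 in B6 and 5.80 ± 0.33 in D2, and was not called. Class I genes have close paralogs that differ in sequence between strains, so the signal of these probesets cannot be assigned to 1 gene with certainty. On one side H2-K2 was followed by AA388235 and H2-K1, both called lower in D2 (by -2.38 and -0.68), and on the other by Vps52 and Rps18, not called. Of 19 genes of class I and peptide loading, 14 were measured. H2-Q10 rose (0.79), H2-K1 (-0.68) and B2m (-0.51) fell, and 11 were not called, beside 2.56% and 8.29% of all genes called higher and lower. The 11 include H2-K2 itself (0.052), whose gene value holds the probeset chosen on this contrast and is a description. The list median was -0.00047, beside -0.053 over all genes. The B2m call was lost with each array centred on its median gene value (adjusted p = 0.0512), where H2-T24 (0.37) and Tapbp (0.30) were called higher.

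**Figure D4:**
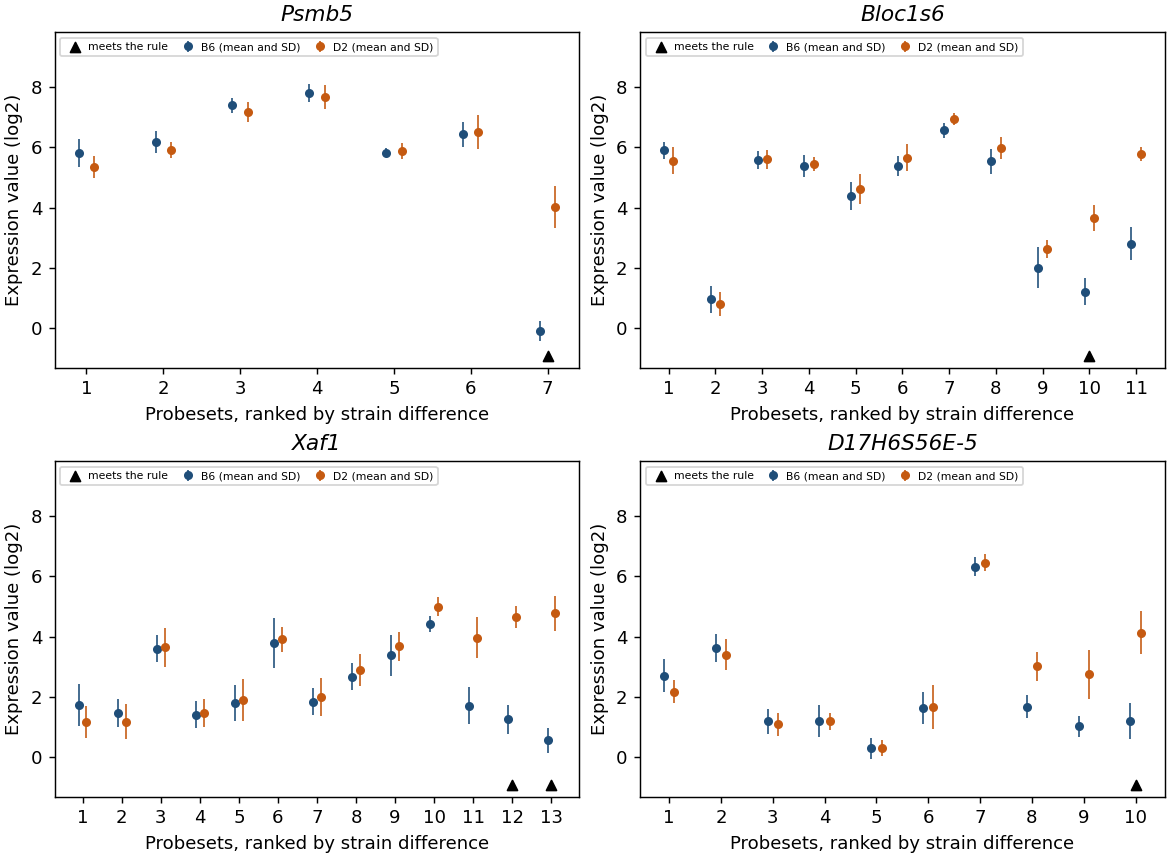
Mean and SD of each probeset of Psmb5, Bloc1s6, Xaf1 and D17H6S56E-5 over 10 B6 and 12 D2 arrays (y axis, log2), ranked by strain difference on the x axis. Triangles mark probesets within the rule; in Psmb5 the other 6 differ by -0.46 to 0.08.

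Gm8983, Zfp934, Ssxb9 and Rtp3 each had 1 raised probeset beside others of which at most 1 was detected in both strains. The pseudogene Gm8983 (EG668118 on the array) had 2 probesets. One, 4940650, ran from -0.42 to 1.88 in B6 (median 0.55) and from 4.62 to 6.55 in D2 (median 6.01), a 34.8-fold difference of the means, and the other was at 0.78 in B6 and 0.65 in D2. Zfp934, a zinc finger gene, had probeset 5434356 at -0.17 to 1.14 in B6 and at 2.48 to 5.19 in D2 (median 4.56), and its 3 others differed by -0.20 to 0.03. Ssxb9, of the SSX family of testis-expressed genes, had probeset 4861933 at 0.09 to 2.10 in B6 and at 2.83 to 4.18 in D2, and its 3 others differed by -0.01 to 0.12. Rtp3, of a family of receptor transporters, had probeset 4822300 at 0.57 to 2.18 in B6 and at 2.84 to 4.87 in D2. The 12 other Rtp3 probesets differed by -0.21 to 0.27, and none was called. As a gene, Rtp3 nevertheless had a value 0.90 ± 0.11 (SE) higher in D2. Only 4 of its probesets passed the filter on low values, the raised one among them. That probeset was chosen on this contrast, and its B6 mean of 1.42 lay below the filter. The gene value is therefore a description. With so few detected probesets, whether these genes are transcribed as a whole in D2 was not tested.

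The highest D2 mean in the set belonged to 1 of the 84 probesets with no listed symbol. Probeset 4756399 was at 0.87 to 2.11 in B6 (median 1.45) and at 7.74 to 8.27 in D2 (median 8.02), and its SD of 0.15 over the D2 arrays was the smallest of all 127. Among the 84, the next in D2 mean were probesets 5265348 (1.04 in B6, 7.34 in D2), 4838222 (0.14 and 7.17), 5503006 (0.39 and 7.11), 5263619 (0.27 and 7.07) and 4766908 (0.31 and 6.76). The Stab2 probeset 4966864, at 7.60 in D2, lay above these. The difference of 4838222, 7.04 ± 0.16 (SE), was the largest in the set, and its B6 arrays ended at 0.71 where its D2 arrays began at 6.47. Over the 84, the D2 mean had a median of 4.10, lower than the 5.63 of the 30 Stab2 probesets, and 32 of the 84 were at or above 3.5 on every D2 array, compared with 26 of the 30. Their identity numbers do not follow genome order, so how many transcripts they stand for was not tested. The 2 probesets with several symbols are not assigned to a gene. They lay at 1.11 and 0.55 in B6 and at 5.28 and 3.65 in D2.

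The strains did not overlap in 113 of the 127 probesets, beside 0.297% of all probesets tested, and all 14 that did overlap had no symbol. All 127 passed the filter on low values, most of them through their D2 level, as their B6 mean lay below it. A few, such as probeset 5026325 (1.489 in B6), lay above it in B6 too. All 127 were called (limma adjusted p at most 0.00044), beside 3.91% of all probesets. Since the rule used this contrast, nothing is read from that count. At the limits, the probeset just inside had a D2 mean of 3.501 (probeset 4607284) and the one just outside 3.496 (probeset 5125161), and in B6 the values were 1.489 (probeset 5026325) inside and 1.501 (probeset 5278953) outside. Other such probesets lay at 3.52 and 3.53 inside and 3.48 and 3.47 outside in D2, and at 1.487 and 1.47 inside and 1.503 and 1.51 outside in B6. The limits thus cut through a continuous range of values.

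In every D2 mouse most of the 127, which were chosen by their strain means, were detected. The number at or above 3.5 on an array ran from 93 to 123 in D2 (median 112) and was 0 on every B6 array except replicate 6, where it was 1. The median over the Stab2 probesets was 5.35 to 6.39 on the D2 arrays (median 5.66) and 0.55 to 1.17 on the B6 arrays (median 0.69). Xaf1, as the mean of its 2 probesets, was at 4.00 to 5.26 in D2 and at 0.41 to 1.39 in B6. Replicate 19 of D2 was lowest in both, at 5.35 for Stab2 and 4.00 for Xaf1, and had the fewest detected probesets, 93, and the highest median over all probesets, 1.51. Replicate 14 had 94 and an array median of 1.48, while replicate 20, with the next highest array median of 1.502, had 103. The part of the array median in these counts was not tested. Replicates 13, 14 and 19 had been set apart in an earlier account of these data as least like their strain; without them 144 probesets met the rule, 126 of them among the 127.

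**Figure D5:**
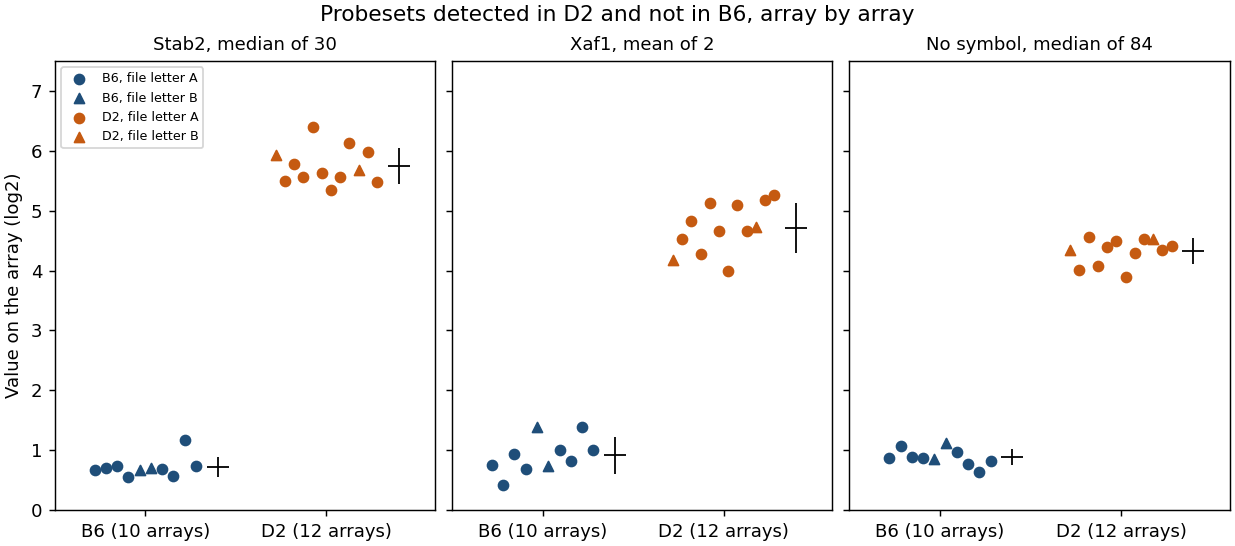
Value on each of the 10 B6 and 12 D2 arrays (y axis, log2) of the median of the 30 Stab2 probesets, the mean of the 2 Xaf1 probesets and the median of the 84 probesets with no symbol; the black cross is the strain mean and SD, and triangles are arrays with file letter B. In each panel every D2 array lies above every B6 array, which is a description, as the probesets were chosen on this contrast.

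Within D2, the probesets of the set varied more from mouse to mouse than others of like level. Their SD over the 12 D2 arrays had a median of 0.63 for the 66 with a D2 mean of 3.5 to 4.5, beside 0.45 for the 93307 probesets in that range. It was 0.46 against 0.37 from 4.5 to 5.5, and 0.38 against 0.27 from 5.5 to 8.5. Probesets brighter than 8.5 were left out, and these differences were not tested. A few probesets with no symbol were near background in single D2 mice. Probeset 4729337 was at 1.03 in replicate 19 and at 2.88 in replicate 14 and ran from 4.37 to 5.89 in the 10 other mice. Probeset 4474399 was at 1.03 in replicate 19 and at 1.36 in replicate 14, with 2.58 to 5.43 in the others. Probeset 4992917 was at 1.32 in replicate 23 alone and at 3.60 to 4.89 in the others. The largest SD in the set, 1.38, belonged to 4729337, and the largest among the Stab2 probesets was 0.66. Over the 12 D2 arrays, pairs of Stab2 probesets had a median Pearson r of 0.57 (435 pairs) and pairs of probesets with no symbol one of 0.13 (3486 pairs); all pairs share the same arrays.

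The file names in the labels carry a letter, A or B, whose meaning the labels do not state, and 2 of the D2 arrays had B. A comparison of letter B with letter A inside D2, which the rule did not use, called none of the 127 probesets (limma), and 13 of them (10.2%) had an unadjusted p under 0.05. Over all 595203 probesets, 2 were called (0.000336%) and 11.5% had such a p. The smallest adjusted p in the set was 0.156, for probeset 5106266, one of those with several symbols, which was lower by -1.33 on the letter B arrays. None of the 30 Stab2 or the 11 other named probesets had an unadjusted p under 0.05. With 2 arrays against 10, this comparison has little precision.

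The opposite set, with a mean of at least 3.5 in B6 and of at most 1.5 in D2, held 362 probesets. It made up 0.123% of the probesets detected in B6, while the 127 were 0.0432% of those detected in D2. Its 111 probesets with 1 symbol were spread over 80 genes, with at most 9 in 1 gene (8.11% of them), where Stab2 held 73.2% of the named D2 probesets. It had 5 genes gained along their length by the same count, against none in D2, where Stab2 came nearest with 30 of 65 (46.2%). The opposite set also had 52 genes with a single such probeset in a gene detected in both strains, against 3. Shares with no symbol were 69.1% and 66.1%. Both sets were chosen by the same contrast, and these differences were not tested.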

How the data were processed

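Whole-brain RNA of 10 B6 and 12 D2 mice was hybridised to Affymetrix Mouse Exon 1.0 ST arrays. The labels state that 24 arrays were run and that 2 read by a different scanner were left out by the authors. The log2 values are as the authors deposited them, the output of RMA (the submitters' processing notes name affy 1.12.2 and R 2.6.0). This method corrects background and normalizes by quantiles, and its options, the probeset definition and the build are not given in the sources used here. Of 1201338 probesets, 10932 were empty on all arrays and left out. Arrays have no read depth, so precision is limited by how many there are.

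In GEO's annotation of the platform, 1 symbol was listed for 309786 of the probesets with values, several for 6308 and none for 874312. Of its 22276 symbols, 17991 were current in the mouse RefSeq gene table (GRCm38.p6), 4224 were updated through a synonym and 61 were kept. That table served only for names, gene types and gene order.

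The members were all probesets past both limits. Strain differences were fitted with limma 3.58.1 in R 4.3.3 (lmFit, eBayes, Benjamini-Hochberg) over the 595203 probesets with a 22-array mean no lower than 1.44, the median probeset mean. Gene values were the median, per array, of at least 3 such probesets with 1 symbol (15951 genes). The letter comparison used the 12 D2 arrays. Adjusted p-values in the text are limma's. On simulated probesets drawn from the real means and spreads (595203, D2 minus B6), 0% of 50 changed by 0.5, 56% of those changed by 1, 96% by 2 and all by 4 were recovered, with 9 false among 135 calls. Only 50 probesets were changed per size, whereas 3.91% of all probesets were called in the data. The adjustment was thus stricter in the simulation, and these shares do not give the recovery in the data. The members and gene lists were chosen with earlier results of these data known. Named by rule were the genes with at least 2 probesets in the set, up to 12 genes with 1 (here all), the 6 brightest probesets without a single symbol and the 3 on either side of each limit; other probesets, such as extremes and other probesets of these genes, were picked after their values were seen. Marker values use all probesets of a gene. Figures were drawn with matplotlib 3.10.9.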

Additional observations from a re-analysis of the deposited data

Results flagged for a closer look

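Over the 10 B6 arrays, 54 values were checked for a single array far from the rest (Dixon's criterion at the 95% level), and 6 had one, where chance gives about 1 in 20. The median over the Stab2 probesets was 1.17 on B6 replicate 11, beside a B6 median of 0.69; the same array had the highest array median of B6, 1.47, and whether the 2 are linked was not tested. Single Stab2 probesets stood out at 2.62 on B6 replicate 1 (probeset 4537640, B6 median 0.72) and at -0.31 on B6 replicate 12 (probeset 5517407, B6 median 0.55). The H2-K2 probeset 4960552 was at 2.21 on B6 replicate 5 (B6 median 0.32). Among probesets with no symbol, 5503006 was at 1.72 on B6 replicate 1 (B6 median 0.29) and 5263619 at 1.56 on B6 replicate 8 (B6 median 0.13). All 6 lay below the lowest D2 array of the same value.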

How the results depend on the processing

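The count of 127 followed the limits more than the arrays. It was 48 at limits of 4 and 1, 450 at 3 and 2, and 24 where every D2 array had to reach 3.5 and no B6 array to pass 1.5. It was 124 with arrays shifted to 1 median, 127 (117 of them shared) with letter A arrays, 136 (122 shared) with medians in place of means and 144 (126 shared) without D2 replicates 13, 14 and 19. Leaving out single arrays gave 124 to 136. At limits of 4 and 1 the genes were 6, with 1 single-probeset gene (Psmb5); at 3 and 2 they were 53, with 3 gained along their length and 22 single-probeset genes. With letter A arrays 4 genes had a single probeset, Cfap54 being added. With the filter at the 75th percentile 31 of the 127 were tested and all 31 called, and under the 5 other settings all 127 were called. The letter comparison called none of the 127 under either alternative. The 113 probesets without overlap stayed 113 without B6 replicate 11. All 52 named probesets kept their direction and call under the 3 settings tried for them. The median SD in D2, 0.48, was 0.47 with shifted arrays and 0.43 without D2 replicates 13, 14 and 19.

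Scaling changed the gene lists. The median difference of all genes was -0.053, -0.091 with arrays shifted to 1 median over all probesets and 0.047 with arrays shifted to 1 median of gene values. Under the first shift 5 hyaluronan genes were lower (Cd44 and Habp4 added). Under the second, 3 class I genes were higher and 1 lower, and 0 interferon-response genes were lower. These shifts, the run without B6 replicate 11 and the SD settings were added after the data were seen. No paired analysis was possible because the strains share no replicate numbers. Values near 1.44 are limited by background.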
